A study of Rattus norvegicus with 6 samples.

Results

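The control arm of a study of gene transfer into heart muscle cells is described here: 3 cultures of neonatal rat ventricular myocytes that received an adenovirus carrying GFP alone. They were taken by their column headers, which carry the words GFP, unpace and Control, and are 3 of the 6 samples in all. In the other 3 the adenovirus carried Tbx18, an internal ribosome entry site and GFP. Both groups came from the ventricles of Sprague Dawley pups aged postnatal day 1 to 3. The dishes were coated with fibronectin and held M199-based medium, whose serum was lowered from 10% to 2% from day 3. Virus was added on the day of isolation. RNA was taken on day 4, so the GFP cultures carry the vector and the reporter and stand for transduced rather than untouched cells. Whether replicates 1, 2 and 3 were separate isolations is not stated in the labels, so the spread between them may be technical.

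A neonatal ventricular isolate is a mixed culture. Its myocytes beat, carry sarcomeres and stop dividing within the first weeks of life, while fibroblasts and other stromal cells that come along continue to divide. Around birth rodent ventricular myocytes exchange fetal for adult protein isoforms, for example slow skeletal for cardiac troponin I and beta for alpha myosin heavy chain. They also move from glycolysis toward fatty acid oxidation. The natriuretic peptides and skeletal alpha-actin belong to the fetal programme that stretch, serum and hypertrophic signals keep on or bring back.

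Replicates 1, 2 and 3 had 18934232, 17460507 and 18200875 reads assigned to genes, recovered from the deposited normalized counts. Of 17089 genes in the table, 12066 had a read in every GFP library and 3818 had none in any of them. A mean of at least 100 normalized counts was reached by 9072 genes, at least 1000 by 3759, at least 10000 by 326 and at least 100000 by 15. Values below are normalized counts, that is reads divided by a size factor of the library. They are not divided by transcript length, since no transcript lengths were used here, so a long transcript gathers more of them than a short one at the same number of molecules. Ranks and shares therefore describe reads, not molecules. Tbx18 itself was read at 312, 268 and 296 in the 3 GFP libraries.

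The reads of the control cultures went first to the contractile apparatus. Actc1, cardiac alpha-actin of the thin filament, stood first in every library with 511002, 539951 and 493102 normalized counts (mean 514685 ± 23641 SD, n = 3) and took 2.35 to 2.54% of all normalized counts of a library. Nppa, the precursor of atrial natriuretic peptide, came next by mean with 307929, 329400 and 270623. The alpha and beta myosin heavy chains followed, Myh6 with 279614, 264186 and 331738 and Myh7 with 216418, 250594 and 238607. The ranges of Nppa and Myh6 overlapped, so their order was not the same in every library: Myh6 stood above Nppa in replicate 3 only. Col1a1, the alpha-1 chain of type I collagen, was the fifth by mean with 219259, 183972 and 191076, and passed Myh7 in replicate 1.

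Of the 25 genes with the most reads, 10 were on the sarcomere and Z-disc list, of whose 35 symbols 28 were matched. Beside Actc1, Myh6 and Myh7 these included Tpm1 (tropomyosin, mean 187068 ± 18673), Tnnt2 (troponin T, 165636 ± 17384), Ankrd1 (a stretch-responsive sarcomere protein, 157221 ± 22732) and Myl3 (essential light chain, 106896 ± 14599). Des (desmin filaments, 104553 ± 16723), Acta1 (skeletal alpha-actin, 71195 ± 17202) and Tnnc1 (troponin C, 70070 ± 7707) made up the rest of them. The glycolytic enzymes Gapdh, Aldoa, Ldha and Eno1 gave 4 more, with means from 85671 ± 7940 for Eno1 to 125700 ± 16539 for Gapdh. The matrix genes Col1a1, Col4a1, Fn1 and Sparc gave another 4. The rest were Nppa and Nppb, the elongation factors Eef1a1 and Eef2, the calcium pump Atp2a2 of the sarcoplasmic reticulum (113621 ± 13869), the ATP synthase subunit Atp5b (109880 ± 8797) and the integrin Itgb1. Itgb1, the beta-1 receptor for matrix, was nearly level at 74102, 75078 and 75111, whereas Acta1 was low in replicate 1 and alike in the other libraries at 51358, 80224 and 82001.

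**Figure D1:**
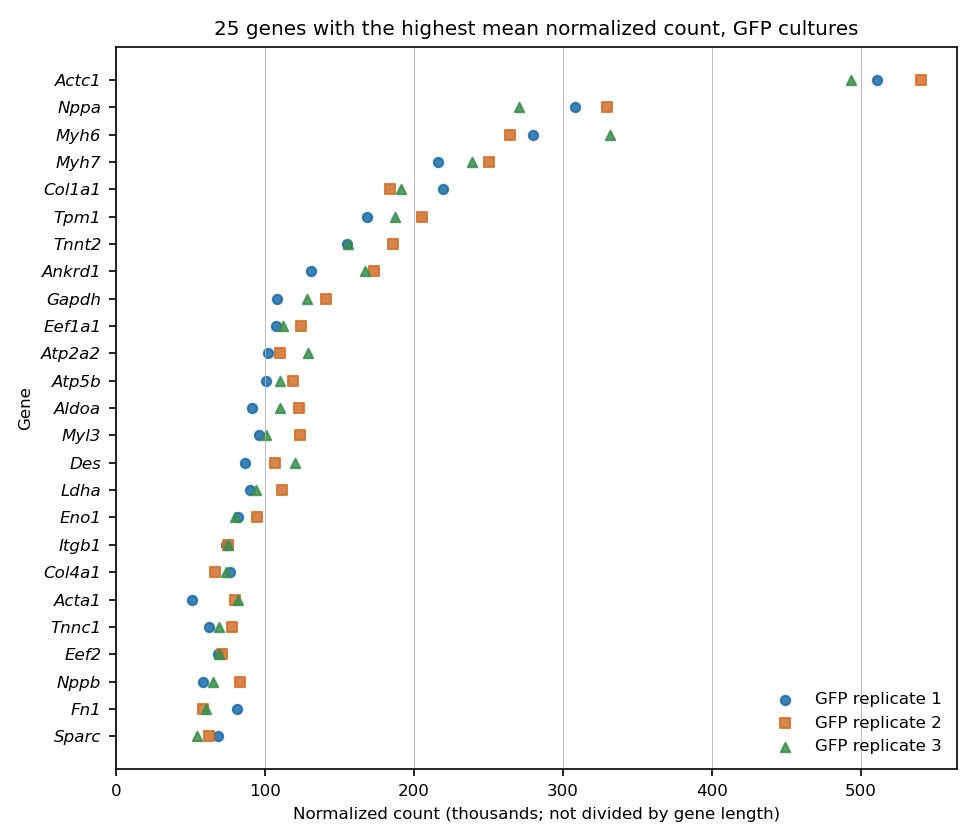
Normalized counts of the 25 genes with the highest mean in the GFP cultures, with 1 symbol per library and a linear axis that starts at 0. Actc1 lies apart from the rest at 493102 to 539951, and below it the ranges of Nppa and Myh6 overlap.

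The distribution of reads over genes was alike in the 3 libraries. The 10 leading genes took 10.9, 11.1 and 10.9% of all normalized counts (mean 11.0 ± 0.0999), and 9 of these 10 were the same in every library. The first 25 took 16.9 to 17.5% and the first 100 took 29.1 to 30.5%. In the replicates, 475, 414 and 448 genes were enough to hold 50% of the counts. Of the first 25 genes of a library, 22 were common to all 3, and of the first 100, 91 were.

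Nppa is the leading secretory transcript of these cultures, and the 120 bases before its RefSeq start on rat build GRCr8, chr5:163712064-163712183 (+ strand), are shown because they hold a TATA motif. The capitals mark TATAAA.
Nppa: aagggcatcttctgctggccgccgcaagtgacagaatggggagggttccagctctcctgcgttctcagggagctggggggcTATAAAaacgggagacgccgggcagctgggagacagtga
TATAAA was searched on both strands of the 250 bases before each start. It stood in 9 of 41 promoters that could be matched among the 60 genes with the most reads (22.0%), in 5.86% of 6582 promoters of genes with a mean of at least 100 and in 12.9% of all 33469 promoters in the table. Nppb, Acta1, Gapdh and Vim were among the 9. A match describes letters and not a site in use.

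The alpha form led the myosin heavy chain reads, with the beta form close behind. Myh6 held 56.2, 51.2 and 58.0% of the reads of its family and Myh7 held 43.5, 48.5 and 41.7% (44.6 ± 3.52). Myh7b, another heavy chain gene, held 0.208 to 0.295%. Troponin I was likewise read from the adult and the fetal gene: Tnni3, the cardiac form, held 61.9, 66.0 and 65.0%, and Tnni1, the slow skeletal form of fetal heart, held 38.1, 34.0 and 35.0% (35.7 ± 2.14). Tnni3 alone was at 32904, 48376 and 37534, a 1.47-fold range.

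Other sarcomere families were read almost wholly from 1 gene. Tnnt2 held 99.4% ± 0.0662 of troponin T reads, Mybpc3 93.3% ± 0.524 of myosin binding protein C and Myom1 93.2% ± 1.27 of myomesin. Of 3 listed myomesin genes 2 were matched. Myl3, the ventricular essential light chain, held 95.2% ± 0.723, and Myl4, its atrial and fetal counterpart, 4.65% ± 0.695. Myl6 of that family was listed at 0, which need not mean that it was off, so these shares may be too high. Between the ventricular and atrial regulatory light chains, Myl7 had 8.81, 7.88 and 13.2% of the sum of Myl7 and Myl2, highest in replicate 3, where Myl2 was lowest (25427, 35598 and 20662). Myl9, which smooth muscle and stromal cells use, was read at 23172, 29979 and 22217, so it overlapped Myl2 and led that family in replicate 3. The leading member was the same in every library in 38 of 40 families with at least 2 measured members. In 13 families the leader held over 90% and in 7 under 60%.

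Actin reads came from muscle and non-muscle genes. Actc1 held 74.5, 73.2 and 74.4% of actin reads. Acta1, skeletal alpha-actin and a fetal heart isoform, held 7.49, 10.9 and 12.4%, lowest in replicate 1. Acta2, smooth muscle actin of myofibroblasts and of immature myocytes, held 10.1, 8.47 and 5.79%, lowest in replicate 3, where its count was 38392 against 69553 and 62437. Actb, the cytoplasmic form, differed little at 5.66, 5.26 and 5.39%. Alpha-actinin gave a like picture, with Actn2 of the Z-disc at 56.8, 62.1 and 66.2% and Actn4 and Actn1, which non-muscle cells use, at 25.1% ± 2.86 and 13.2% ± 1.95. In bulk RNA, fewer cells of a type and less RNA per cell cannot be told apart.

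Calcium handling reads came from the cardiac genes. Atp2a2, the cardiac calcium pump, held 99.9% of its family in every library. Its inhibitor phospholamban, Pln, was read at 37672, 40000.5 and 46144 and held 99.2% ± 0.0562 against sarcolipin, Sln. Calsequestrin, the calcium buffer of the reticulum, was shared: Casq2, the cardiac form, held 68.7, 65.6 and 69.8%, and Casq1, the skeletal form, held 32.0% ± 2.19. Slc8a1, the sodium calcium exchanger of heart, held 99.9% ± 0.055.

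Among ion channels, the pacemaker channel family was read mostly from Hcn2, the ventricular form, with 92.2% ± 0.947, while Hcn4, the main form of the sinus node, was at 97.9, 67.9 and 73.6 counts and held 5.67% ± 0.587. The L-type channel Cacna1c and the T-type channels Cacna1g and Cacna1h, the latter abundant in fetal myocytes, had nearly equal read shares of 32.2% ± 3.47, 32.0% ± 5.79 and 32.9% ± 2.36, and their order changed between libraries. Cacna1g was the one that moved most, with 3017, 1473 and 1748. Kcnj2 and Kcnj12, which carry the inward rectifier current of mature ventricle, were read at only 142 to 205 and 109 to 139. Connexin reads came from Gja1, the ventricular connexin, which held 96.4% ± 0.473 at 18896, 21918 and 20650.

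Enzymes of energy metabolism were read from glycolytic and oxidative isoforms side by side. Ldha held 77.7% ± 1.35 of lactate dehydrogenase reads, Slc2a1, the fetal glucose transporter, held 70.9% ± 3.63 against Slc2a4, and Hk1 held 72.6% ± 1.87 against Hk2, the muscle form. Pfkp led the phosphofructokinases with 56.5% ± 1.83 and the muscle form Pfkm held 16.4% ± 0.832. Other families were read mostly from the muscle form: Cox6a2, the heart and muscle form, held 69.6% ± 1.89 of its family, Fabp3 89.2% ± 1.29 and the adenine nucleotide translocase Slc25a4 82.9% ± 1.36. Eno1 held 99.3% and Pgam1 98.7% of their families, so the muscle forms Eno3 and Pgam2 were minor.

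In creatine kinase, carnitine palmitoyltransferase 1 and cytochrome oxidase 8 the shares shifted between libraries, each with the muscle form lowest in replicate 1. Ckm, the muscle creatine kinase, held 54.6, 62.7 and 70.5%, and Ckb, the fetal and brain form, held 42.6, 34.7 and 26.1%. Cpt1b, the muscle carrier step of fatty acid oxidation, held 63.5, 74.1 and 76.8%, and the liver and fetal form Cpt1a 31.8, 22.2 and 19.9%. Cox8b, the muscle member of its pair, held 11.1, 14.2 and 18.5% against Cox8a. With 3 libraries these orders are a description.

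**Figure D2:**
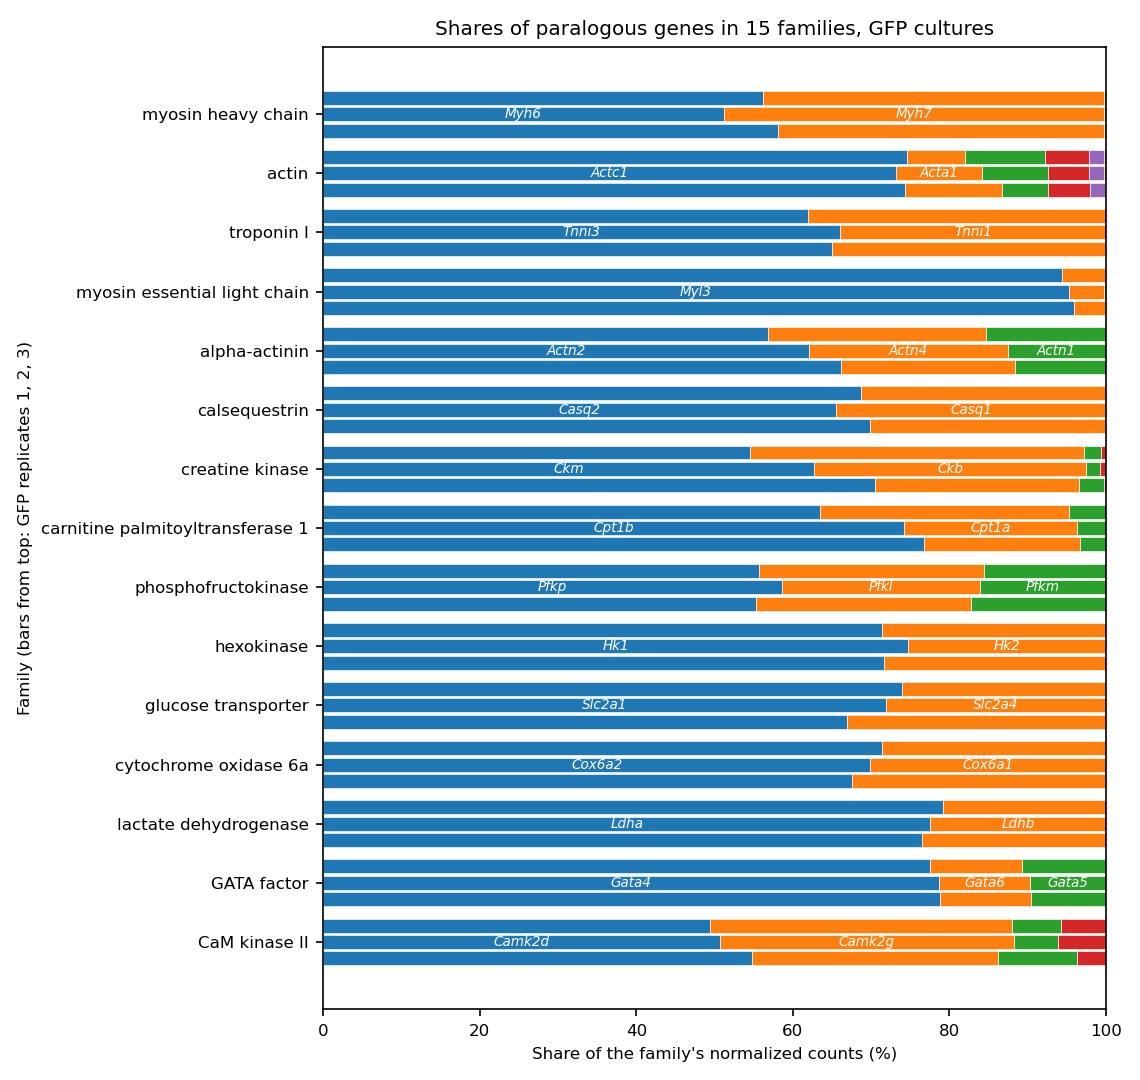
Share of each gene in the summed normalized counts of its family for 15 families, 3 bars per family from GFP replicate 1 at the top to 3 at the bottom, coloured by the member's place in its family and named where a member held at least 9% in replicate 2. Creatine kinase and carnitine palmitoyltransferase 1 shift between libraries, whereas GATA factor shares, with Gata4 at 78.3% ± 0.692, stay close.

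Markers of the labelled cell type were present: 25 of 25 matched cardiomyocyte genes had a mean of at least 10. Together they took 10.2% ± 0.23 of all normalized counts. The list held 27 symbols, and Ttn (titin) and Tcap were not matched, so the share and the ranks above leave them out. The defining factors were read at 1961, 2167 and 2244 for Nkx2-5 and 6497, 6487 and 6141 for Gata4. The ventricular factors Irx4 (885, 762 and 637) and Hey2 (514, 385 and 336) were present. The 15 matched atrial genes ranged widely. Nppa and Pam, which amidates peptide hormones (53429.6, 49195 and 53831), were among the most read genes, Myl4 averaged 5204, Myl7 2881 and Dkk3 2036, whereas Sln stayed at 308 to 327, Bmp10 at 6.9 to 14.9 and Kcna5 at 1.06 to 4.6. Of 14 matched sinus node genes 6 had a mean of at least 100, namely Cacna1g, Gjc1 (a connexin, mean 619), Tbx18, Bmp4 (208), Vsnl1 (138) and Rgs6 (130). The node factors Tbx3 (mean 41.9), Shox2 (3.7 to 9.21) and Isl1 (0 to 3.45) were lower.

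Among the lists of cells other than cardiac myocytes, the fibroblast list had the largest sum of reads. Sums over lists of unequal length do not rank cell types by number. Of 20 matched fibroblast genes 19 had a mean of at least 10, and the list took 2.20% of the counts, with sums of 502696, 440167 and 434083. Col1a1 was the member with the most reads in each sum. Pdgfra, the fibroblast receptor, was read at 958, 666 and 749, Dcn at 934, 1150 and 1323, and Postn, of activated fibroblasts, at 9193, 6426 and 6844. Contractile genes of smooth muscle and myofibroblasts were plentiful too, with Tagln at 30950, 30995 and 27886 and Cnn1 at 6343, 6845 and 4741, whereas Myh11, which is more specific to smooth muscle, was at 799, 605 and 484. Pericyte genes were read as well, among them Pdgfrb at 3097, 2093 and 2466 and Rgs5 at 238, 143 and 200.

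Vascular and immune cells left small traces. The 18 matched endothelial genes summed to 6064, 3977 and 5392, with Pecam1 at 408, 217 and 334. The 16 macrophage genes summed to 1649, 3089 and 1957, with Cd68 at 105, 222 and 158 and Ptprc, the pan-leukocyte marker, at 33.0, 46.9 and 29.9. Epicardial Wt1 was at 124, 80.3 and 120, and lymphatic Lyve1 at 22.2 to 33.0. Dbh, which makes noradrenaline, was at 336, 383 and 374.

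Several cell types were at or near 0. Of 12 T, NK and B cell genes 9 had no read, among them Cd3e and Ms4a1. Of 11 neutrophil and mast cell genes 6 had none, including Mpo and Elane, and nearly all of that list's sum came from Kit (323, 277 and 313), which other cells share. Of 8 adipocyte genes 6 had none, including Adipoq and Plin1. Alb and Afp of liver had none. The globin Hbb was at 3.19 to 9.21, and all 9 matched erythroid genes together summed to 52.1, 95.1 and 124. In the skeletal muscle list the sum was nearly all Ckm, with Myh4, Myh8, Myf5 and Pax7 at 0 and the embryonic myosin Myh3 averaging 95.8.

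**Figure D3:**
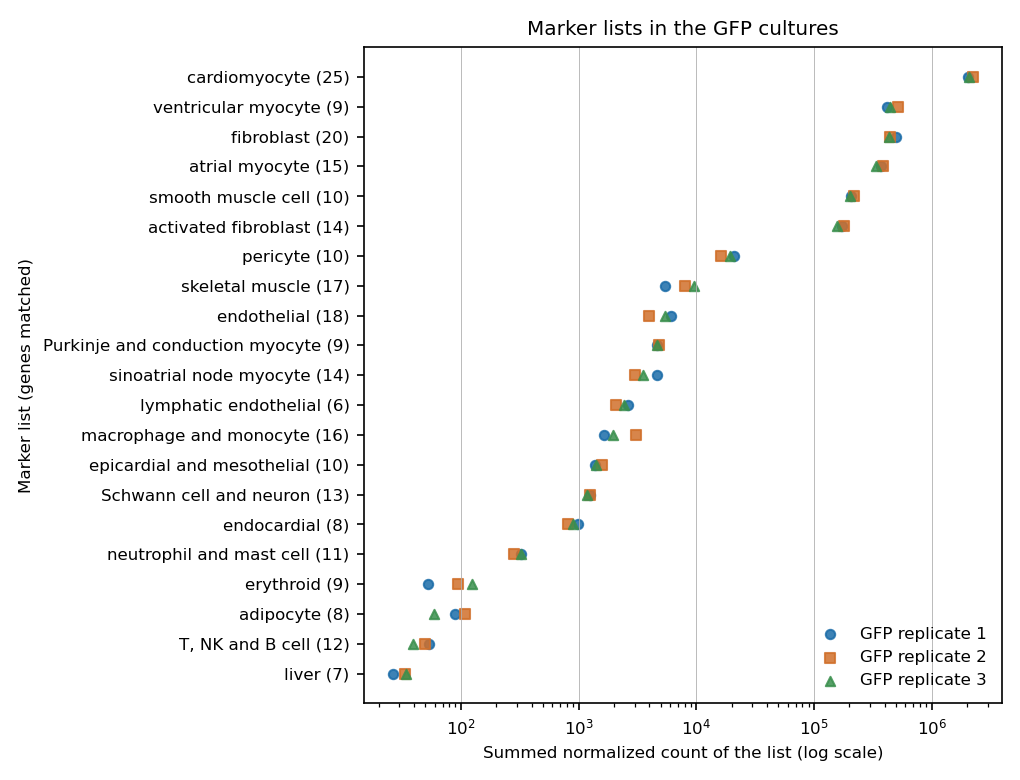
Summed normalized counts of 21 marker lists in each GFP library on a log axis, with the number of matched genes in brackets. The cardiomyocyte, ventricular and fibroblast lists lie at the right, the sinoatrial node and Purkinje lists lie just below the endothelial list, and replicate 2 is the lowest library of the endothelial list and the highest of the macrophage list.

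Some genes at 0 or near it sit beside partners with very many reads, so a low value in this table need not mean that a gene was off. Col1a2, the partner chain of Col1a1 in type I collagen, was at 17.0, 18.5 and 2.30. Myl6, the non-muscle essential light chain, and Mfap4 of fibroblast matrix were listed at 0 in all 3 libraries. Hprt1, which nearly all cells use, was at 17.0, 32.1 and 29.9. Which gene models the counting used is not stated in the labels.

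The spread among the 3 libraries was measured over those 9072 genes that averaged 100 normalized counts or more. A gene was called variable where its highest library exceeded its lowest by at least 1.5-fold, each with 1 count added. This rule called 1141 genes (12.6%), and 276 (3.04%) passed 2-fold. The median highest-to-lowest ratio was 1.22 and the median SD of the log2 values was 0.15. A chi-square test on the recovered reads, adjusted by Benjamini-Hochberg, found 6270 genes (69.1%) to differ beyond counting error among these libraries; it compares the libraries and no conditions. The rule called 414 genes without replicate 1, 645 without replicate 2 and 668 without replicate 3. For the same gene a ratio over 2 libraries cannot exceed that over 3. Counts with a library left out are therefore lower by construction and are not a test. In the Tbx18 libraries the same rule called 175 of 9306 genes (1.88%) and the median SD was 0.0909; the difference between the groups was not tested.

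Of all 9072 genes, whatever their ratio, 32.4% were highest and 40.7% lowest in replicate 1, 37.1% highest and 30.9% lowest in replicate 2, and 30.4% highest and 28.4% lowest in replicate 3. Scaling to equal totals instead gave 43.9% highest and 29.8% lowest in replicate 1, and 26.3% highest and 40.8% lowest in replicate 2. Among the called genes, 561 (6.18% of all) were highest and 358 (3.95%) lowest in replicate 1, 223 (2.46%) highest and 436 (4.81%) lowest in replicate 2, and 357 (3.94%) highest and 347 (3.82%) lowest in replicate 3. These shares are the background for the lists below, whose members share their libraries and are not independent of each other.

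The 20 genes with the largest SD, with symbols that begin with LOC, RGD or AABR left out, were of several kinds. The first 3, Fosb, Fos and Atf3, were on the immediate early list. Next came Dusp2 (81.9, 370 and 252), a phosphatase that shuts off MAP kinases, the growth factor Areg (120, 312 and 559) and Hamp, the iron hormone hepcidin, which heart muscle makes (415, 606 and 1838). Rasd1 (63.8, 245 and 223), Abra (194, 435 and 847), an actin-linked activator of SRF targets, and the neuropeptide Gal (64.9, 71.6 and 239) were also lowest in replicate 1. Polq (278, 75.3 and 77.1), a repair polymerase, and Parpbp (346, 168 and 81.7) were highest there. The next 9 genes held Ccnb2 and Ccnb1 of the cell cycle list, the mitotic transcripts Nek2, Fam83d and Cenpw, all highest in replicate 1, and 4 others. These were Kif26b (141, 42.0 and 133), Pla2g7 (355, 659 and 1368), Kcne1 (83.0, 231 and 65.6) and Tceal7 (200, 245 and 72.5).

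Cell cycle genes had the widest range of median deviations of the lists measured. All 37 measured members, which drive DNA replication and mitosis, were highest in replicate 1, where 32.4% of all genes were. The 1.5-fold rule called 31 of the 37, against 12.6% of all genes. Ccnb1, the mitotic cyclin, was read at 1806, 1045 and 507 (3.55-fold). Ccnb2 was read at 1151, 918 and 323 (3.55-fold). Cenpf, a centromere protein, was read at 2966, 1439 and 883 (3.36-fold). Mki67, the proliferation marker Ki-67, was at 5608, 2448 and 1984, and Top2a, which untangles chromosomes, at 7160, 3271 and 2279. Replicates 2 and 3 thus lay well below replicate 1 for these genes. Gins2, of the replication helicase, varied least at 618, 562 and 522 (1.18-fold).

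The members split by which library was lowest. The 27 lowest in replicate 3 included mitotic genes such as Plk1 (1362, 798 and 515), Aurka (1199.95, 884 and 505) and Kif23 (1624, 961 and 609), and also 8 genes of the entry into or the course of DNA replication, namely Ccne1, Ccne2, Mcm5, Rrm2, Cdc6, Cdt1, Gins2 and Tk1. The 10 lowest in replicate 2 were Mcm2, Mcm3, Mcm4, Mcm6, Mcm7, Pcna, Rrm1, Tyms, E2f1 and Foxm1, of which all but Foxm1 act in or before DNA synthesis. Mcm4 was read at 2255, 1412 and 1764 and Pcna, the polymerase clamp, at 2401, 1619 and 1758. Genes of DNA replication thus stood in both groups. This grouping was made after the values were seen. The median member deviated by 0.68, -0.13 and -0.60 (log2) from its mean in replicates 1, 2 and 3, and the median SD was 0.65 against 0.15 over all genes. Without replicate 1, in which all 37 were highest, 14 of them were called from the narrower ratios that remained, and 414 genes in all.

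In the Tbx18 libraries 0 of the 37 members were called, where the rule called 1.88% of all genes, so a count of 0 was near that share. Their median SD there was 0.07, against 0.0909 over all genes. The fibroblast sum of the GFP libraries was also highest in replicate 1 (502696 against 440167 and 434083), and the endothelial sum was highest there too. Of 16 measured fibroblast members 7 were highest in replicate 1, against 32.4% of all genes, and 4 were lowest there. The rule called 3 of those 16 and 5 of 25 cardiomyocyte genes, against 12.6% of all genes. Of the cardiomyocyte genes 14 were lowest in replicate 1, against 40.7% of all genes, or 10 to 14 over the scalings computed. The part of the makeup of the cultures in the cell cycle values was not tested.

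Promoters of 28 of the 37 genes could be matched in RefSeq, build GRCr8. Stretches of 160 bases before the start are shown for 3 mitotic genes chosen after their values were seen, since they hold both elements that cell cycle promoters are known for, the CCAAT box bound by NF-Y and the TTTGAA core of the cell cycle homology region. Capitals mark CCAAT and TTTGAA on either strand, so ATTGG and TTCAAA are the same elements read backwards. Cdc20 lies at chr5:137255800-137255959 (- strand), Ccnb2 at chr8:79981659-79981818 (- strand) and Top2a at chr10:84473094-84473253 (- strand).
Cdc20: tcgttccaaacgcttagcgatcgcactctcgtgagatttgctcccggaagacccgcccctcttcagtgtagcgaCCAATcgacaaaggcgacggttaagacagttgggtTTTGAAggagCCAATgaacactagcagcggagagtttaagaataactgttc
Ccnb2: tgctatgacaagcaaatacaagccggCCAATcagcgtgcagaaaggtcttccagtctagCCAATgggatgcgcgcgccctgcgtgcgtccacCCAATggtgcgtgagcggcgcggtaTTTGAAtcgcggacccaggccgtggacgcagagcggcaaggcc
Top2a: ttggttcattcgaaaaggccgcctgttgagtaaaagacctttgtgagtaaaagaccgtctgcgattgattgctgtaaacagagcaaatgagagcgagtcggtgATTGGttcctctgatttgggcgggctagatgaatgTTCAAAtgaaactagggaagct
Over the 250 bases before the start and both strands, CCAAT stood in 21 of the 28 promoters (75.0%), in 35.5% of promoters of genes with a mean of at least 100 and in 34.0% of all promoters. TTTGAA stood in 9 of 28 (32.1%), against 9.69 and 16.2%. The shares describe these windows and were not tested.

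Immediate early genes, whose products are transcription factors and phosphatases made within minutes of a stimulus, ran the other way. Of 19 measured members 18 were highest in replicate 3 and 18 lowest in replicate 1, against 30.4% and 40.7% of all genes. The rule called 17 of them, against 12.6% of all genes. Fosb was read at 178, 729 and 1870 (10.5-fold), Fos at 399, 2143 and 3362 (8.41-fold) and Atf3 at 658, 2355 and 4954 (7.51-fold). Egr1 was at 1831, 3120 and 5876, Junb at 1391, 2695 and 3580 and Nr4a1 at 715, 1623 and 1992. Ier3 varied least with 2822, 3898 and 3847 (1.38-fold), and Fosl2 (178, 135 and 194) was the member that was lowest in replicate 2. The median deviations were -0.74, 0.16 and 0.53 and the median SD was 0.66.

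In the Tbx18 libraries 0 of 18 measured immediate early genes were called, where the rule called 1.88% of all genes, so a count of 0 was near that share. Their median SD there was 0.11, against 0.0909 over all genes. Without GFP replicate 1, in which 18 were lowest, the rule called 6 of the 19 from the narrower ratios that remained, and 414 genes in all. Cyr61 (5284, 9749 and 12379.8) and Ctgf (34687, 52919 and 58113), secreted matrix proteins on the YAP target list, were picked after their values were seen because they had the same order. That list did not share it, with 5 of 14 members highest in replicate 3 and 6 highest in replicate 1.

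Promoters of 12 of these 19 genes were matched. The 160 bases before the start are shown for Ier2 at chr19:40399213-40399372 (+ strand) and Dusp1 at chr10:17184693-17184852 (+ strand), chosen after their values were seen because both hold the full cAMP response element within that stretch. Capitals mark TGACG, and TGACGTCA, which holds TGACG on each strand.
Ier2: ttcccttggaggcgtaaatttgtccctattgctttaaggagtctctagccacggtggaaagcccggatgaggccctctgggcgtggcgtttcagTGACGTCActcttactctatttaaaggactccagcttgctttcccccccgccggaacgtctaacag
Dusp1: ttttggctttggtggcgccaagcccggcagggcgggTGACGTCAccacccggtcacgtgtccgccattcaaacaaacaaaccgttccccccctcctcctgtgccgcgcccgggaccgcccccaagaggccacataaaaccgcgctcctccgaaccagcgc
TGACG stood in 9 of the 12 promoters (75.0%), in 31.1% of promoters of genes with a mean of at least 100 and in 18.2% of all. TGACGTCA stood in 4 of 12 (33.3%), those of Jund, Ier2, Dusp1 and Btg2, against 3.19 and 1.59%. With 12 promoters, 1 gene more or less moves these shares by several points.

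**Figure D4:**
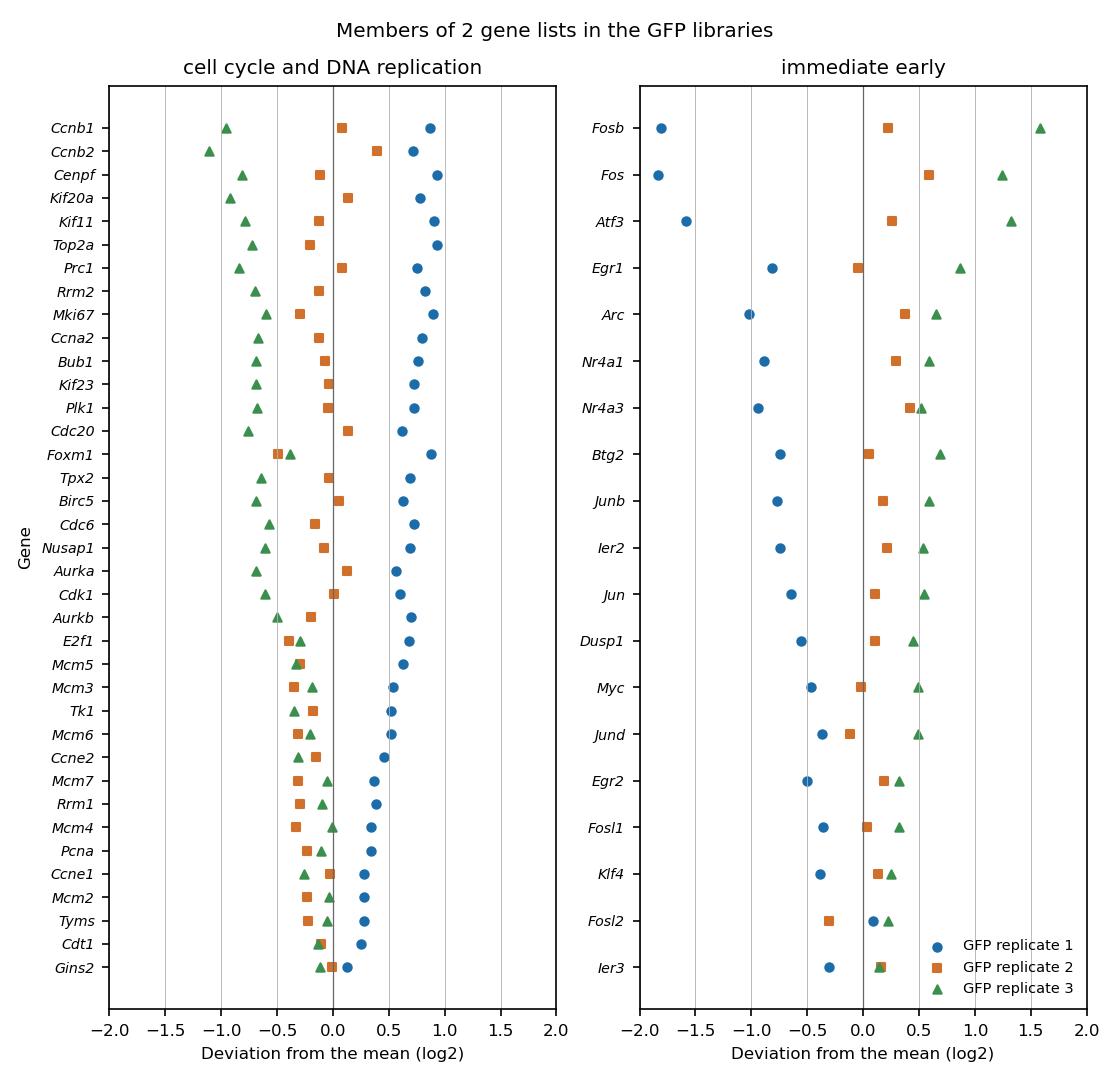
Deviation of each library from the mean of the 3 GFP libraries (log2) for 37 cell cycle genes and 19 immediate early genes, sorted by range. Replicate 1 is the highest library for all 37 cell cycle genes and the lowest for 18 of 19 immediate early genes.

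Macrophage genes set replicate 2 apart. All 9 measured members were highest in replicate 2, where 37.1% of all genes were. All 9 were called, against 12.6% of all genes. C1qa, a complement component made by tissue macrophages, was at 106, 267 and 190 (2.49-fold). The scavenger receptor Mrc1 was at 110, 242 and 160 (2.20-fold) and Cd68 at 105, 222 and 158 (2.10-fold). Cd14 varied least at 161, 209 and 125 (1.66-fold). Low members had the same highest library: all 16 matched genes, read at a mean of 5.12 or more, peaked in replicate 2. Without replicate 2 the rule called 1 of 9 (645 genes in all), and without replicate 1 it called 4 (414 genes in all). Leaving out the library in which all 9 were highest can only narrow their ratios. In the Tbx18 libraries 2 of 9 were called, against 1.88% of all genes.

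Endothelial genes were lowest in that library. All 10 measured members were lowest in replicate 2, against 30.9% of all genes, and 8 were highest in replicate 1. The rule called 6 of them, against 12.6% of all genes. Vwf, the von Willebrand factor, was at 379, 140 and 292 (2.70-fold). Cdh5, the junction cadherin of endothelium, was at 219, 82.7 and 190 (2.63-fold), and Pecam1 varied 1.88-fold. Kdr, a receptor for VEGF, varied least at 1078, 841 and 999 (1.28-fold). Of all 18 matched genes 15 were lowest in replicate 2, 2 in replicate 1 and 1 in replicate 3. Dll4, a Notch ligand of arterial endothelium that is not on this list, had the same lowest library at 139, 64.2 and 116. Edn1, on the endocardial list, was instead highest in replicate 2 at 340, 358 and 336. Both were picked after their values were seen. The called count was 0 without replicate 2, where the rule called 645 genes in all. Leaving out the library in which all 10 were lowest can only narrow their ratios. In the Tbx18 libraries 0 of 10 were called, where the rule called 1.88% of all genes, so a count of 0 was near that share. The lists are far below the myocyte sum, at 0.0248 and 0.0106% of the counts for endothelial and macrophage genes.

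Mitochondrial and translation genes moved little but together. Of 39 oxidative phosphorylation genes, 38 were lowest in replicate 1 (40.7% of all genes) and 34 highest in replicate 2 (37.1%). Yet 2 were called, against 12.6% of all genes. The median deviations were -0.21, 0.13 and 0.07. Cox8b of complex IV was called at 1163, 1764 and 2357 (2.03-fold) and Ndufa5 of complex I at 3484, 5414 and 5200 (1.55-fold). Cycs, the soluble electron carrier, was typical at 9978, 14170.0 and 12432. Of 28 cytosolic ribosome genes 27 were lowest in replicate 1 and 1 was called. Of 25 proteasome genes 22 were lowest there and 0 were called.

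Over the deposited and 4 other scalings, 38 oxidative phosphorylation, 27 ribosome and 19 to 22 proteasome genes were lowest in replicate 1, and all 37 cell cycle genes highest there. The highest library depended more on the scaling: 26 to 34 oxidative phosphorylation, 18 to 24 ribosome and 22 to 23 proteasome genes were highest in replicate 2.

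Fatty acid oxidation genes were also mostly lowest in replicate 1. Of 28 measured members 23 were lowest there, against 40.7% of all genes. In replicate 2, 14 were highest (37.1% of all genes), and in replicate 3, 11 were (30.4%). Over the scalings these were 12 to 16 and 9 to 13. The rule called 9, against 12.6% of all genes. Angptl4, a lipase inhibitor induced by fatty acids, was at 141, 279 and 152 (1.97-fold), Acadvl, the long-chain dehydrogenase, at 3431, 5257 and 6522 (1.90-fold), and Plin5, of lipid droplets, at 78.7, 93.9 and 138 (1.74-fold). Ppargc1a, a coactivator of mitochondrial genes, went against the list at 983, 589 and 603. Acadl varied least at 10382, 11250.5 and 9683 (1.16-fold). Antioxidant genes had 16 of 19 lowest in replicate 1 and 8 called, against the same 40.7% and 12.6%. Srxn1 led them (949, 1352 and 1993, 2.10-fold). Mt1a (1238, 1803 and 1019) and Cat (2858, 3811 and 4944) were next, and Gclm varied least at 1.09-fold.

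Matrix, contractile and iron genes gave smaller or mixed orders, and their counts stand against 12.6% called of all genes. Of 26 collagen and matrix genes 17 were highest in replicate 1 and 5 were called, among them Col14a1 (1848, 1650 and 1013), Fbn1 (10466, 5836 and 5856), which forms microfibrils, and Vcan (5982, 3696 and 3943). Of 10 smooth muscle genes 4 were called: Actg2 (1487, 1896 and 789), Lmod1 (441, 382 and 235), Acta2 and Myh11, all lowest in replicate 3. Of 27 sarcomere genes 4 were called (14.8%), a share near that of all genes, namely Myl2, Acta1, Nebl and Lmod2. Of 10 iron genes 5 were called, with Hamp and the exporter Slc40a1 (164, 287 and 430) lowest and the importer Tfrc (19764, 16355 and 12799) highest in replicate 1. Of 6 measured Notch genes 4 were called.

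Other lists had few or no called members, against 12.6% of all genes, except the interferon-stimulated list, whose share was near that. These lists are short, and differences from the share of all genes were not tested. Of 10 intercalated disc genes 0 were called, and their median SD was 0.10, with Gja1 within 1.16-fold and the catenin Ctnna1 within 1.07-fold. Of 18 unfolded protein response genes 0 were called, although Hspa5, the reticulum chaperone, reached 1.48-fold at 25359.5, 37516 and 30912. Of 14 citrate cycle genes 0 were called, and of 28 glycolysis and hypoxia genes 1 was, Aldoc. Of 8 measured interferon-stimulated genes 1 was called (12.5%), Igtp, and their median SD was 0.20 against 0.15 over all genes, with Isg15 at 24.7 to 34.0 and Mx1 at 2.47 to 3.45.

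**Figure D5:**
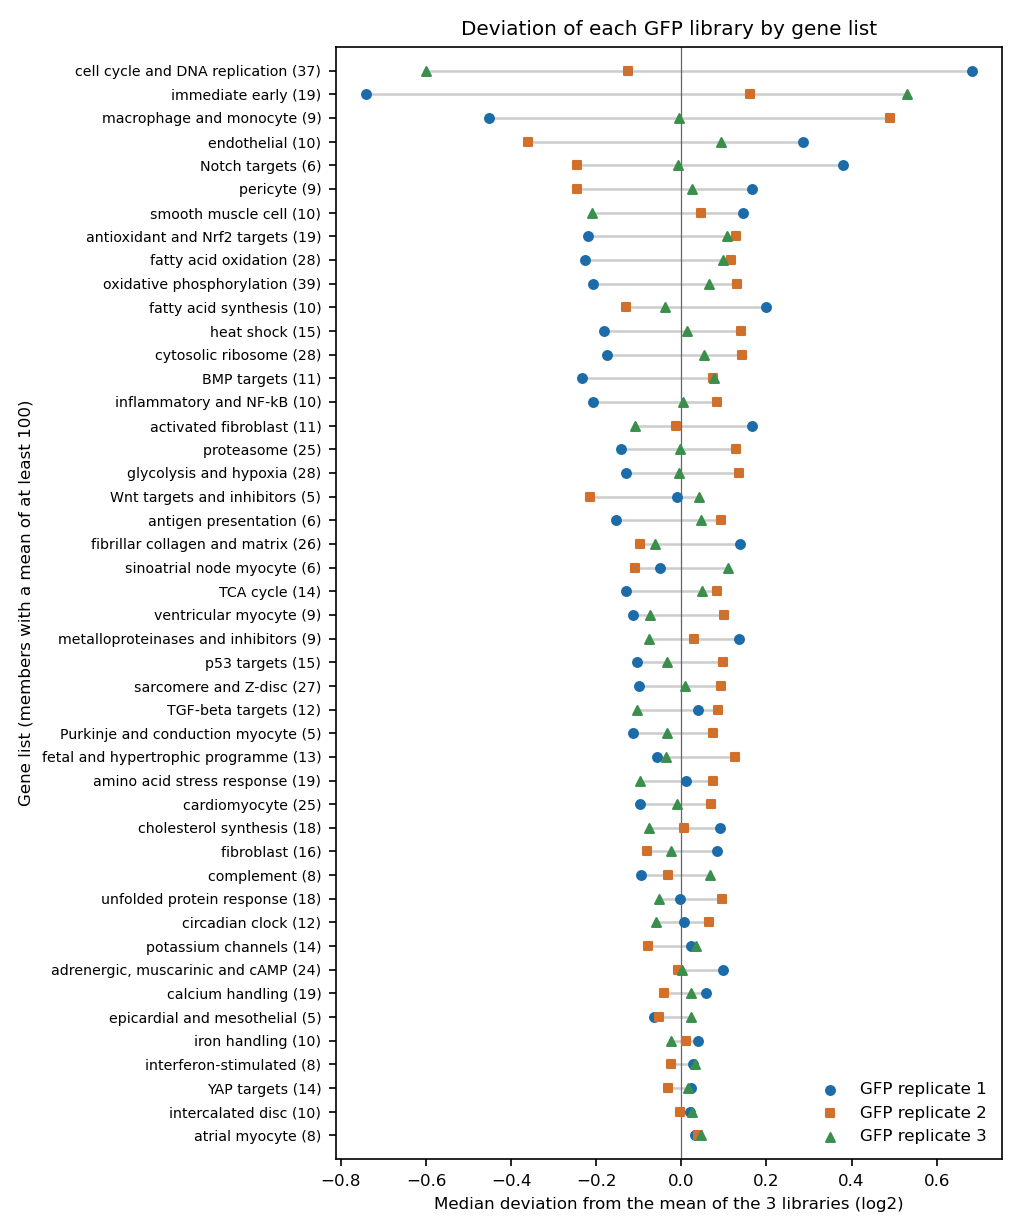
Median deviation of each GFP library from the mean of the 3 (log2) for 46 gene lists with at least 5 members of mean 100 or more, sorted by range. Cell cycle and immediate early lists spread from -0.60 to 0.68 and from -0.74 to 0.53, and the medians of the lists at the bottom lie near 0 in every library, although their members can go both ways.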

How the data were processed

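RNA was read from 6 rat cultures, and the 3 GFP libraries are described. The deposited signal holds DESeq2-normalized counts, for which the authors scaled gene read counts by 1 factor per library. Tools listed in the submitters' processing notes, without their roles, are HTSeq, STAR 2.4.0g1, DESeq2 1.10.1 and bcl2fastq 2.17.1.14. Build, annotation and strand setting: not given in the sources used here. Paralogous, antisense or overlapping genes are therefore uncertain. Per the labels' protocols, libraries used 100 ng of total RNA, a stranded mRNA kit and 101 bp paired reads. All values (100%) were whole multiples of a step within 0.01, so reads were recovered.

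Spread was the SD of log2(normalized count + 1) and the highest-to-lowest ratio, called at 1.5-fold for genes with a mean of at least 100, with no test between groups. The calculation was tested on simulated data. Python 3.11.15, scipy 1.17.1, R 4.3.3 and edgeR 4.0.16 (for TMM factors and dispersion) were used. The 98 lists held 980 symbols, 68 unmatched. Members, lists and rules were chosen with earlier results of these data known. Division by transcript length had been planned, but no lengths were used here. Named genes were the 20 most variable (without LOC, RGD or AABR symbols), the 25 with most reads, members of the families described, and defining markers. The 3 most variable and the least variable of each list described were named too. Further genes were chosen as examples after their values were seen. Ratios and counts under other scalings, filters, pseudocounts and left-out libraries were computed too. Intervals on counting error are not given, since libraries differed beyond it.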

Additional observations from a re-analysis of the deposited data

How the results depend on the processing

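Main choices were the deposited scaling, the mean of at least 100 and the 1.5-fold rule. Of 129 recomputed values, 108 stayed within 1.5 times or within 1 SD and 21 moved. Other scalings and a pseudocount of 5 moved none of them. With the filter at a mean of 10, the rule called 2248 genes, 14 macrophage, 12 endothelial and 1 intercalated disc gene; with no filter, 4309, 15, 13 and 1; with a mean of 50, 1 intercalated disc gene; here more genes were tested. A 2-fold rule left 276 genes, 3 macrophage and 2 endothelial. Leaving out 1 library gave 414 to 668 genes, 14 to 28 cell cycle, 6 to 17 immediate early, 1 to 7 macrophage and 0 to 5 endothelial genes. Ratios over fewer libraries are narrower by construction. At a mean of 1, 3 liver genes were detected rather than 1. The comparison of levels per length with levels not per length was not run, since no lengths were used here.

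Replicate numbers are shared with the Tbx18 libraries. Deviations of same-numbered libraries correlated at -0.09, 0.27 and 0.04 over 8905 genes, so the numbers were not taken to pair them, and 2 of the 3 GFP libraries correlated best with their own number. A replicate block over all 6 libraries gave a median SD of 0.122, against 0.133 without it. The edgeR common dispersion, as a coefficient of variation on the log2 scale, was 0.21. Depth limits genes below the filter, where 1 read is worth 1.06 to 1.23 normalized counts.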

Other observations

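Genes often used to scale quantitative PCR differed in how level they were across the GFP cultures. Actb was read at 38817, 38764 and 35718 (1.09-fold), Tbp at 383, 351 and 361 (1.09-fold), Ywhaz at 9530, 9832 and 8969 and Ppia at 19970, 21850 and 19500 (1.12-fold). Gapdh reached 1.30-fold with 107976, 140722 and 128403, Pgk1 1.31-fold, B2m 1.33-fold and Tfrc 1.54-fold. Gapdh, Pgk1, B2m and Rpl13a (19084, 23869 and 20709) were lowest in replicate 1 and highest in replicate 2, the libraries in which most glycolysis and most ribosome genes were also lowest and highest. Rplp0 (43280, 50314 and 53560), Rpl32 (5647, 7772 and 7806) and Sdha were lowest in replicate 1 too, but highest in replicate 3.

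Over the 3759 genes that averaged 1000 counts or more, the smallest SD of the log2 values belonged to Zwint, a kinetochore protein, at 3741, 3743 and 3755. The phosphatases Mtmr4 (1129, 1130 and 1137) and Mtmr2 (2694, 2714 and 2703) and the mitochondrial protein Atad3a (1671, 1678 and 1685) were close to it. Zwint acts in mitosis but was not on the cell cycle list, and it did not share that list's 1.18-fold to 3.55-fold range. These genes were picked by their spread, so their level values are a description of these 3 libraries.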
